A study of Homo sapiens with 6 samples.

Results

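HEK293T cells that had taken up a plasmid for GFP and had been sorted for green fluorescence were compared with HEK293T cells treated with a control siRNA. The comparison uses 2 of the 6 libraries of the series, chosen by their labels, and neither library carries a change of DDX3X, the RNA helicase the study was about. HEK293T is a human embryonic kidney line that carries the SV40 large T antigen. In the GFP group, cells received 5 µg of a plasmid expressing GFP alone for 32 h, and the GFP-positive population was collected by flow cytometry; the labels also mention 30 h for plasmids. In the control siRNA group, cells received non-targeting siRNA oligos for 48 h, and no sorting is described for them. All 6 groups share the line, the serum-containing medium and antibiotics, and each holds 1 library. The other plasmid groups, GFP-DDX3X WT, GFP-DDX3X T275M and GFP-DDX3X G302V, were sorted in the same way (these are the labels' names, and a figure legend of the study names the mutants differently in part), and the DDX3X siRNA group was treated for 48 h like its control. Plasmid, transfection, time and sorting differ together between GFP and control siRNA, so their parts cannot be told apart. With 1 library a group there is no replicate error, no p-value can be given, and every interval below covers counting error only.

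Values are RPKM, reads per kilobase of a transcript row, scaled to 1000000 reads of the library. Of 23204 gene symbols, 12767 had 1 RPKM or more in either library, and 12310 of these had a row of 200 bases or longer and were compared. A log2 ratio is the difference of log2(RPKM + 1), GFP minus control siRNA, which understates changes of genes of low level. The reads behind each row were recovered from the steps of the values, and they total 54850000 for GFP and 67520000 for control siRNA, with 43720000 to 180870000 over all 6 libraries. DDX3X was at 119 RPKM with GFP and at 107 RPKM with control siRNA (log2 ratio 0.15, 95% counting interval 0.13 to 0.17), against 31.3 RPKM with DDX3X siRNA and 1906 to 3279 RPKM with the GFP-DDX3X plasmids. Its paralog DDX3Y had 7 reads with GFP and 3 with control siRNA. The labels call the cell type neuronal. Of 16 neuronal markers, 5 reached 1 RPKM in both libraries, led by the neurofilament genes NEFM (683 and 520 RPKM) and NEFL (140 and 118 RPKM), whereas DCX, STMN2, ELAVL3 and ELAVL4 had at most 1 read in either. Of 12 epithelial and progenitor markers typical of HEK293 cells, 10 reached 1 RPKM in both, including VIM (257 and 252 RPKM) and KRT18 (47.3 and 42.8 RPKM). The kidney genes PAX8 and PAX2 were at or under 0.416 RPKM. No blood marker reached 1 RPKM, and the summed level of the 8 blood markers was 1.11 RPKM with GFP and 0.931 RPKM with control siRNA. In bulk libraries, fewer cells that express a gene and less RNA per cell cannot be told apart.

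Immediate-early genes are transcribed within minutes of a stimulus such as serum, stress or mechanical handling, without new protein synthesis, and their RNAs are short-lived. Many encode transcription factors, among them FOS and FOSB of the AP-1 family and EGR1. Serum response factor acts on several of them through CArG boxes in the promoter, and cyclic AMP acts through the cyclic AMP response element, or CRE. CGA encodes the alpha subunit shared by the glycoprotein hormones of pituitary and placenta, and its promoter is a textbook case of paired CREs. Promoter stretches of EGR1, CGA and DUSP1, which are among the genes furthest apart in the comparison, are shown for this reason, from RefSeq on build GRCh38.p14 and written 5′ to 3′ on the strand of the gene. Positions are counted from the start site, with the first base before it as -1. Capitals mark CArG boxes in EGR1 and CREs, spelled TGACGTCA, in CGA and DUSP1.
EGR1, chr5:138465359-138465418, plus strand, -120 to -61: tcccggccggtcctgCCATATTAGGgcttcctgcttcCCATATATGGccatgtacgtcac
CGA, chr6:87095207-87095266, minus strand, -160 to -101: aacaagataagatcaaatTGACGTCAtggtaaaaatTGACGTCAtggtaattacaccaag
DUSP1, chr5:172771286-172771345, minus strand, -150 to -91: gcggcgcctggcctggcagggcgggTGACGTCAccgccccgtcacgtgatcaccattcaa
EGR1 thus held 2 CArG boxes, CGA 2 CREs and DUSP1 1 CRE in these windows. In these spellings and windows EGR1 and CGA, which differed most and in opposite directions, shared neither motif. Near-matches were not counted, so a CRE of another spelling in EGR1 is not excluded. Both genes are members of the list of cyclic AMP response element targets described at the end.

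Few genes separated the 2 libraries 2-fold. The log2 ratios had a median of 0.007, and 95% of them lay between -0.48 and 0.39. With GFP, 6 genes were 2-fold or more higher (0.0487% of 12310) and 4 genes were 2-fold or more lower (0.0325%). The higher ones were EGR1, FOS, SNAR-B1, FOSB, IER2 and TERC, and the lower ones were CGA, LOC644656, MLL and DST. At 1.5-fold, 64 genes were higher (0.520%) and 110 lower (0.894%). Just inside the 2-fold limit were TERC at 1.10 and DST at -1.03, and just outside it LY6G5B at 0.996 and LINC00473 at -0.997. In 65.2% of genes the ratio differed from 0 by more than its counting interval, and counting error does not stand for the spread between cultures. The 2-fold split depends on the scale: on reads scaled by library total alone, with no division by row length, it was 6 higher and 16 lower, and with all rows of a symbol summed it was 6 higher and 10 lower.

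**Figure D1:**
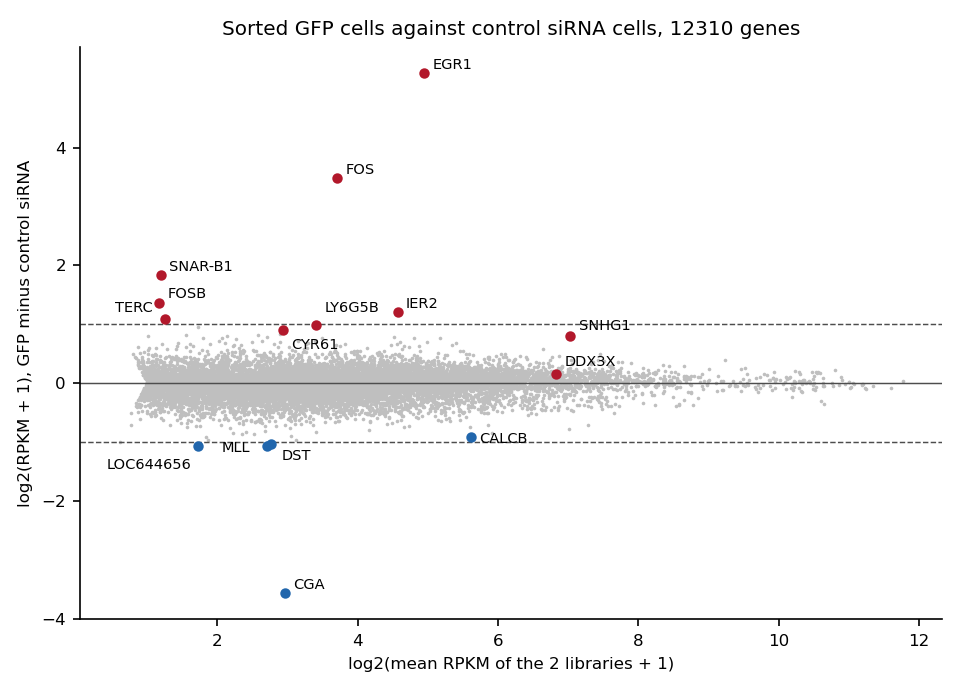
Each point is 1 of the 12310 compared genes, with log2 of its mean RPKM plus 1 on the x axis and the log2(RPKM + 1) difference, GFP minus control siRNA, on the y axis; dashed lines mark 2-fold. EGR1 at 5.27 and FOS at 3.48 stand above the cloud and CGA at -3.56 below it, while DDX3X lies at 0.15.

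EGR1 had the highest ratio of all compared genes, and FOS the next. EGR1 (chromosome 5, 137801168 to 137804992 of GRCh37, plus strand), a zinc-finger transcription factor, was at 58.9 RPKM with GFP (10137 reads) and 0.557 RPKM with control siRNA (118 reads). The other plasmid libraries had 55.2 RPKM with WT, 48.6 with T275M and 23.6 with G302V, and DDX3X siRNA had 0.451 RPKM. All 4 plasmid libraries therefore stood far above both siRNA libraries. The RPKM ratio of GFP to control siRNA was 106, and the log2 ratio was 5.27 (5.17 to 5.36).

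FOS (chromosome 14, 75745529 to 75748933, plus strand), which forms AP-1 with JUN proteins, was at 23.0 RPKM with GFP and 1.15 RPKM with control siRNA. It was at 18.4, 18.3 and 9.18 RPKM with WT, T275M and G302V and at 1.73 RPKM with DDX3X siRNA. The groups did not overlap, and the RPKM ratio was 19.9 with a log2 ratio of 3.48 (3.35 to 3.60). FOSB (chromosome 19, 45971253 to 45978437, plus strand) was at 2.24 RPKM with GFP and 0.255 RPKM with control siRNA, a log2 ratio of 1.37 (1.26 to 1.46). It was at 1.18, 0.897 and 0.515 RPKM with WT, T275M and G302V and at 0.277 RPKM with DDX3X siRNA, so G302V came closest to the siRNA libraries. FOSB overlaps ERCC1 on the opposite strand, and the library kit does not mark strand.

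IER2 (chromosome 19, 13261225 to 13265725, plus strand), a nuclear immediate-early protein, was at 32.1 RPKM with GFP against 13.4 RPKM with control siRNA. WT, T275M and G302V had 37.7, 33.9 and 26.2 RPKM, and DDX3X siRNA had 11.8 RPKM. The log2 ratio was 1.20 (1.12 to 1.28), and GFP was within the range of the other plasmid libraries. DUSP1 (chromosome 5, 172195099 to 172198198, minus strand), a phosphatase that switches off MAP kinases, was at 27.9 RPKM with GFP and 15.8 RPKM with control siRNA, a log2 ratio of 0.79 (0.71 to 0.86). It was at 37.6, 43.99 and 38.2 RPKM in the other plasmid libraries and at 18.8 RPKM with DDX3X siRNA, so for DUSP1 GFP was the lowest of the plasmid libraries. TRIB1 (chromosome 8, 126442600 to 126450645, plus strand), a pseudokinase, was at 19.6 RPKM with control siRNA and 1.74 times that with GFP (0.77, interval 0.71 to 0.82), with 32.8 to 35.6 RPKM in the other plasmid libraries and 27.9 RPKM with DDX3X siRNA.

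Over the whole list of 47 immediate-early genes, 35 were compared, and the 12 others were at or under 0.914 RPKM in both libraries. Of the 35, 32 were higher with GFP, against 51.5% of all compared genes, and the median log2 ratio was 0.36. At 1.5-fold, 12 were higher, against 0.520% of all compared genes, and none was lower, against 0.894%. Besides those already named, the 12 hold ARC at 0.81, GADD45B at 0.75, RHOB at 0.68, ZFP36L1 at 0.68, JUNB at 0.62 and MYC at 0.59. RHOB was at 51.0 RPKM with GFP and 31.4 with control siRNA, but at 56.6 with DDX3X siRNA, so its arms overlapped. JUN, the usual partner of FOS, was at 104 RPKM against 80.8 RPKM, a log2 ratio of 0.36, and the stress-inducible ATF3 was at 23.8 against 20.4 RPKM, at 0.21. The lowest members were NR4A1, a nuclear receptor, at -0.31 (-0.42 to -0.20), and SPRED1, an inhibitor of the MAP kinase pathway, at -0.07 (-0.16 to 0.03). EGR2, EGR3 and EGR4 were at or under 0.252 RPKM in both libraries, so within its family EGR1 alone was compared. In 24 of the 35 genes all 4 plasmid libraries lay above both siRNA libraries, which held for 22.6% of all compared genes, and in none did all 4 lie below, which held for 15.0%.

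The promoter stretches were searched over 250 bases before to 50 after the start site. A CArG box was found in 2 of the 27 immediate-early genes with a promoter in the RefSeq table, EGR1 and SRF, and in 1.04% of 9920 compared genes. A CRE was found in 3 of the 27 (CCNL1, DUSP1 and JUND) and in 3.42% of all. TATAAA between -40 and -20 on the strand of the gene was found in 6 of the 27 (BTG1, DUSP1, FOS, FOSB, GADD45B and JUNB) and in 1.48% of all. CArG boxes and CREs were searched on both strands. Among the 12 genes lowest in GFP with 5 RPKM or more, 11 had a promoter in the table, CREs were found in CGA and FAT1 and TATAAA in CGA, and no CArG box was found.

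Of the 12 genes highest in GFP with 5 RPKM or more in either library, 5 were immediate-early genes (EGR1, FOS, IER2, DUSP1 and TRIB1). CYR61, now CCN1, a matrix protein controlled by YAP and serum response factor, was at 8.98 against 4.32 RPKM (0.91, interval 0.79 to 1.02), with 8.37 to 11.6 RPKM over the plasmid libraries and 4.09 RPKM with DDX3X siRNA. SNHG1 (chromosome 11, 62619450 to 62623425, minus strand), a noncoding RNA that hosts small nucleolar RNAs in its introns, was at 165 against 94.3 RPKM (0.80, interval 0.76 to 0.85). It was at 132 to 154 RPKM in the other plasmid libraries and at 105 RPKM with DDX3X siRNA. HSF4, a member of the heat shock factor family, was at 7.28 against 3.82 RPKM, a log2 ratio of 0.78, and overlaps a gene without a symbol on the same strand.

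The remaining 4 overlap other named genes or transcripts, so some of their reads may belong to these, which was not tested. LY6G5B was at 13.2 against 6.10 RPKM and overlaps CSNK2B on the same strand, with 13.2 to 13.4 RPKM in all plasmid libraries. GNB3, a G protein beta subunit, was at 8.47 against 4.31 RPKM and overlaps CDCA3 on the opposite strand. TSSK3, a kinase of the testis, was at 6.59 against 3.31 RPKM and overlaps FAM229A on the opposite strand. ARPC4-TTLL3, a read-through transcript, was at 13.1 against 7.32 RPKM. In all 12 genes the 4 plasmid libraries lay above both siRNA libraries, beside 22.6% of all compared genes, although GFP and control siRNA themselves chose the 12.

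**Figure D2:**
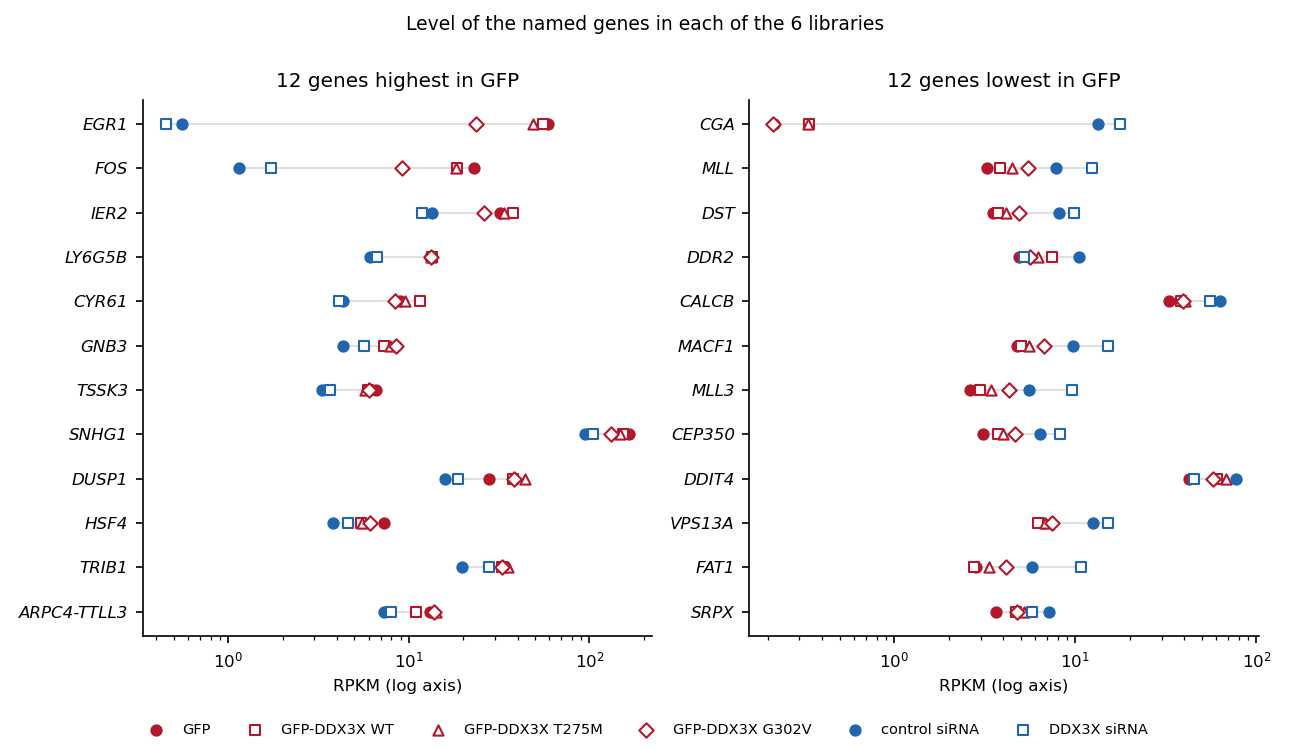
Points are the RPKM of 1 library each, on a log axis, for the 12 genes highest and the 12 genes lowest in GFP among genes of 5 RPKM or more; filled symbols are GFP and control siRNA, open symbols the 4 other libraries, red for plasmid and blue for siRNA. EGR1 and CGA show the widest gaps between red and blue, and DDR2 and DDIT4 are the genes in which red and blue overlap.

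A pair of noncoding RNAs of low level completed the 2-fold set on the higher side. SNAR-B1, whose accession is now SNAR-B2, one of a family of near-identical small noncoding RNAs, had 34 reads with GFP and 0 with control siRNA, which is at least 14.0-fold higher when 3 reads are taken as the limit of the control library. It had 31, 6 and 12 reads with WT, T275M and G302V and 29 with DDX3X siRNA, so the arms overlapped, and its reads cannot be assigned to 1 copy. TERC, the RNA template of telomerase, had 56 reads with GFP and 16 with control siRNA, at 2.26 and 0.525 RPKM, a log2 ratio of 1.10 (0.71 to 1.42). It was at 3.43, 1.35 and 1.47 RPKM in the other plasmid libraries and at 0.515 RPKM with DDX3X siRNA, without overlap.

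CGA (chromosome 6, 87795216 to 87804824, minus strand) was the gene most reduced. It was at 0.219 RPKM with GFP (9 reads) and 13.4 RPKM with control siRNA (680 reads). WT, T275M and G302V had 0.340, 0.336 and 0.213 RPKM, with 7 to 16 reads, and DDX3X siRNA had 17.6 RPKM. The siRNA libraries thus held CGA at a moderate level and the plasmid libraries near the floor. The RPKM ratio of control siRNA to GFP was 61.4, and the log2 ratio was -3.56 (-3.72 to -3.34). LINC00473, a noncoding RNA named here after its values were seen, had 1 read with GFP and 78 with control siRNA, and 1 to 2 reads in the other plasmid libraries against 219 with DDX3X siRNA.

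CALCB (chromosome 11, 14926543 to 15103888, plus strand), which encodes a calcitonin gene-related peptide, was at 32.9 against 63.0 RPKM, a log2 ratio of -0.92 (-0.99 to -0.84). It was at 38.3 to 40.4 RPKM in the other plasmid libraries and at 55.3 RPKM with DDX3X siRNA, again without overlap of the arms. CALCB overlaps CALCP on the same strand and CALCA and OR7E41P on the opposite strand. Whether some of its reads belong to these was not tested. DDR2, a collagen receptor kinase, was at 4.90 against 10.5 RPKM (-0.96, interval -1.06 to -0.86), and SRPX, a secreted sushi-domain protein, at 3.66 against 7.15 RPKM (-0.81). DDIT4, an inhibitor of mTORC1 that is induced by stress, was at 42.3 against 76.6 RPKM (-0.84, interval -0.90 to -0.79). DDR2 was at 5.64 to 7.44 RPKM in the other plasmid libraries and at 5.21 RPKM with DDX3X siRNA, and DDIT4 at 57.4 to 68.3 RPKM and at 45.04 RPKM. In both genes DDX3X siRNA was near GFP and the arms overlapped. LOC644656, a noncoding RNA whose accession is now ZNF143-AS1, was at 1.13 against 3.46 RPKM (-1.06), with 1.07 to 1.34 RPKM in the other plasmid libraries and 2.76 RPKM with DDX3X siRNA.

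The other 7 of the 12 genes lowest in GFP have rows of 10055 to 17871 bases and encode very large proteins. MLL, now KMT2A, a histone H3 lysine methyltransferase, was at 3.24 RPKM with GFP, 3.85 with WT, 4.48 with T275M, 5.50 with G302V, 7.84 with control siRNA and 12.4 with DDX3X siRNA. Its log2 ratio was -1.06 (-1.11 to -1.01). DST, a plakin that links cytoskeletal filaments, was at 3.49, 3.74, 4.14 and 4.91 RPKM in the plasmid libraries in the same order, 8.15 with control siRNA and 9.84 with DDX3X siRNA, a log2 ratio of -1.03 (-1.07 to -0.98). MACF1, another plakin, was at -0.90, MLL3, now KMT2C, at -0.86, the centrosomal CEP350 at -0.86, the lipid-transfer protein VPS13A at -0.83 and the giant cadherin FAT1 at -0.82. MLL, DST, MACF1, MLL3 and CEP350 shared one order of the 6 libraries, lowest with GFP, then WT, T275M, G302V and control siRNA, and highest with DDX3X siRNA.

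Long rows as a group had a like order. Genes with rows of 10000 bases or longer took 1.83% of the reads of compared genes with GFP (Wilson 95% interval 1.83% to 1.84%), 1.84% with WT, 2.04% with T275M, 2.27% with G302V, 2.54% with control siRNA (2.54% to 2.55%) and 3.27% with DDX3X siRNA. GFP and WT did not differ beyond these intervals, and the siRNA libraries were above all plasmid libraries. The median log2 ratio, GFP minus control siRNA, was 0.045 for the 2863 genes with rows of 1000 to under 2000 bases, -0.103 for the 868 of 6000 to under 8000, -0.314 for the 201 of 10000 to under 15000, and -0.545 for the 30 of 15000 or longer. In that last bin 3.33% of genes were higher with GFP. Of the 110 genes 1.5-fold or more lower, 40 had rows of 10000 bases or longer, which is 36.4% against 1.88% of all compared genes, and none of the 64 higher genes had one. RNA quality values are not given in the sources used here, and the part of length-dependent recovery of RNA in these ratios was not tested.

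GC content moved with the ratios as well. The median was -0.086 for the 1702 genes with a transcript GC content of 35 to under 40% and 0.172 for the 496 of 65% or more. In these 2 bins WT minus DDX3X siRNA had medians of 0.081 and 0.158, T275M 0.11 and 0.106, and G302V 0.019 and 0.165. Median GC content was 58.6% for genes 1.5-fold or more higher with GFP and 43.3% for those lower, against 49.0% for all compared genes. When a fit on row length and GC content was taken out, an alternative added after seeing the data, 5 genes were 2-fold higher (EGR1, FOS, FOSB, IER2 and TERC) and 1, CGA, was 2-fold lower. MLL moved to -0.65 and DST to -0.55, whereas EGR1 was at 5.2, FOS at 3.44, FOSB at 1.28 and IER2 at 1.05. SNAR-B1 and LOC644656 have no GC value.

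**Figure D3:**
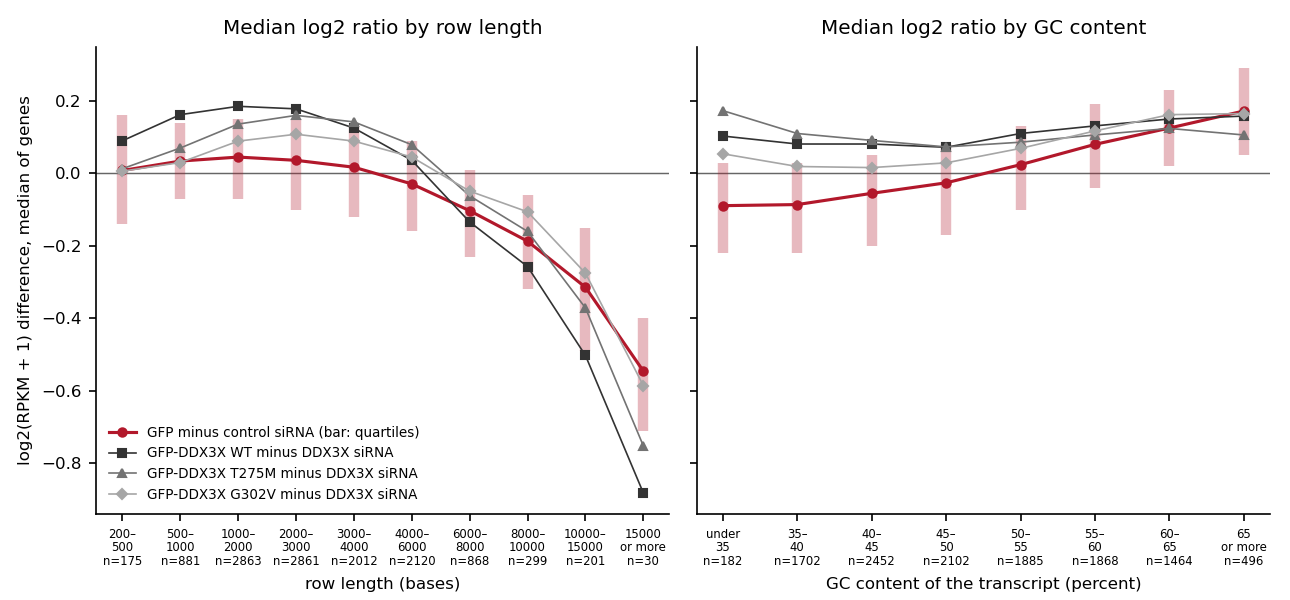
Red points are median log2(RPKM + 1) differences, GFP minus control siRNA, in bins of row length (bases, left) and transcript GC content (percent, right), with bars for the quartiles and n genes under each bin; grey lines are the same medians for each GFP-DDX3X library minus DDX3X siRNA. All 4 lines fall to between -0.545 and -0.881 in the bin of the longest rows.

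Gene lists of pathways that transfection, sorting or siRNA treatment could touch were then described by their counts. Among 17 lists, that of the endoplasmic reticulum unfolded protein response had the lowest median and that of the immediate-early genes the highest. These chaperones and folding enzymes keep secreted and membrane proteins soluble during folding, and their genes are induced when unfolded proteins accumulate. All 29 were compared, 27 were lower with GFP, and the median log2 ratio was -0.26. None passed 1.5-fold in either direction, beside 0.894% of all genes lower and 0.520% higher, so the difference was small in each gene and shared by nearly all.

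HSPA5, the chaperone BiP, was at 147 RPKM with GFP and 175 RPKM with control siRNA, a log2 ratio of -0.26 (-0.28 to -0.24). It was at 127, 134 and 152 RPKM with WT, T275M and G302V and at 199 RPKM with DDX3X siRNA. CALR, the lectin chaperone calreticulin, was at 382 against 495 RPKM (-0.37, interval -0.39 to -0.36), with 345 to 372 RPKM in the other plasmid libraries and 600 RPKM with DDX3X siRNA. Both genes were below the siRNA libraries in all 4 plasmid libraries. PDIA4, a disulfide isomerase, was at 110 against 151 RPKM (-0.46), and XBP1, the transcription factor spliced by IRE1, at 77.2 against 104 RPKM (-0.42).

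The members furthest down were DNAJB9, a cochaperone of BiP, at 3.40 against 5.32 RPKM (-0.52, interval -0.65 to -0.39), and SEL1L, a scaffold of the degradation complex, at 6.65 against 9.89 RPKM (-0.51, interval -0.57 to -0.45). The highest were SEC61B, a translocon subunit, at 154 against 137 RPKM (0.16) and DERL2, at 24.1 against 23.2 RPKM, which did not differ detectably at this depth (0.05, interval -0.05 to 0.14). In 19 of the 29 genes all 4 plasmid libraries lay below both siRNA libraries, against 15.0% of all compared genes, and in none above, against 22.6%. Outside the 2 libraries compared, the medians for WT, T275M and G302V minus DDX3X siRNA were -0.38, -0.44 and -0.38, beside medians over all genes of 0.10, 0.10 and 0.06. These 3 share the DDX3X siRNA library and carry the change of DDX3X. After the removal of length and GC content the median was -0.22, with 2 genes higher as before.

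**Figure D4:**
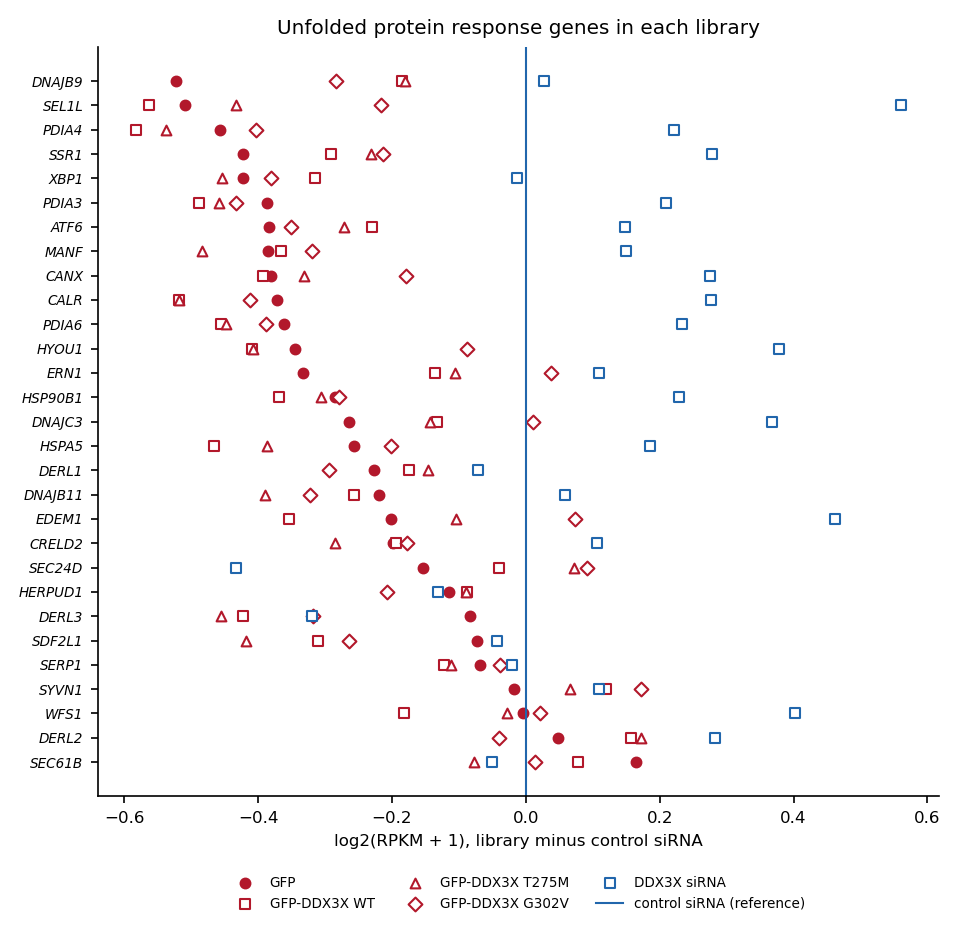
Points are log2(RPKM + 1) of each library minus that of control siRNA (the line at 0) for the 29 unfolded protein response genes, ordered by the GFP value; red symbols are plasmid libraries and blue squares DDX3X siRNA. Filled GFP points lie left of the line in 27 genes, from -0.52 for DNAJB9 to 0.16 for SEC61B.

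Genes of the cell cycle were described by phase. Of 50 DNA replication genes, 47 were higher with GFP, with a median of 0.12, and 1 passed 1.5-fold, beside 0.520% of all genes. That was E2F1, a transcription factor of the entry into S phase, at 28.9 against 17.5 RPKM (0.70, interval 0.63 to 0.76), although DDX3X siRNA had 28.1 RPKM and so lay within the plasmid range of 26.2 to 30.1. LIG1, DNA ligase 1, was at 31.6 against 23.1 RPKM (0.43), and the lowest members, RPA3 and DUT, were at -0.10 and -0.02, the latter not detectable (-0.08 to 0.03). Of 49 genes of mitosis and G2, 35 were lower, with a median of -0.07. In WT, T275M and G302V minus DDX3X siRNA the medians of the replication list were 0.38, 0.27 and 0.16. Those of the mitosis list were 0.24, 0.19 and 0.09, with 38, 39 and 34 of 49 genes higher. Over all compared genes the medians were 0.10, 0.10 and 0.06, with 7673, 7711 and 7397 of 12310 genes higher. The mitosis list thus had the opposite sign there, but all genes together were shifted upward too, and with G302V its median was near theirs. ASPM and ANLN were 1.5-fold lower, beside 0.894% of all genes, at 12.1 against 21.8 RPKM (-0.80) and 29.2 against 45.02 RPKM (-0.61), and the arms did not overlap for either, as for 8 of the 49 genes in this direction, beside 15.0% of all genes. ASPM organises spindle poles and ANLN the contractile ring, and their rows have 6133 and 4770 bases. CDC25B, an activator of CDK1, was at 0.20 and the checkpoint gene MAD2L1 at 0.13.

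Of 62 replication-dependent histone genes, 10 were compared, of which 7 were lower and 3 higher, with a median of -0.11 and few reads. In WT, T275M and G302V minus DDX3X siRNA the medians were 0.50, 0.11 and -0.25, beside 0.10, 0.10 and 0.06 over all compared genes. HIST1H4K was at -0.51 (-0.88 to -0.04), HIST1H2BD at -0.27 (-0.63 to 0.10), HIST1H2AC at 0.17 (-0.20 to 0.53) and HIST1H2BJ at 0.18 (-0.19 to 0.54). Histone copies share sequence, so these rows are uncertain.

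Plasmid DNA in the cytosol can be sensed through CGAS and STING, which lead to interferon and its target genes. Of 53 interferon and nucleic acid sensing genes in the tables, 23 were compared, with a median log2 ratio of -0.004, and 9 were higher. None was 1.5-fold higher, beside 0.520% of all genes, and 1 was 1.5-fold lower, beside 0.894%, namely IFI6 at 10.5 against 16.3 RPKM (-0.59, interval -0.74 to -0.44). IFI6 was at 11.6 RPKM with DDX3X siRNA, within the plasmid range of 10.5 to 13.3, so the arms overlapped. In WT, T275M and G302V minus DDX3X siRNA the medians of the list were 0.30, 0.31 and 0.19. Over all compared genes they were 0.10, 0.10 and 0.06. IFITM1, a membrane restriction factor, was at -0.35, and the transcription factor IRF9 and the inhibitor NFKBIA were at 0.35 and 0.28. ISG15 was at 2.90 against 2.91 RPKM and IFIT1 at 2.32 against 2.41 RPKM, neither different detectably. Among the genes under the filter, MB21D1, which encodes CGAS, was at 0.0708 and 0.0247 RPKM, TMEM173, which encodes STING, at 0.696 and 0.422 RPKM, and IFNB1 at 0.0217 and 0 RPKM.

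The heat shock, p53 and NRF2 lists had medians near that of all genes in GFP against control siRNA. Of 26 heat shock factor target chaperones, 18 were higher, with a median of 0.06 and none past 1.5-fold. HSPA1L was at 0.46 and the small heat shock protein HSPB1 at 0.39, with 120 against 91.3 RPKM, while SERPINH1, a collagen chaperone, was at -0.30 and HSPA4L at -0.23. Of 26 p53 target genes, 15 were higher, with a median of 0.02 and none past 1.5-fold. The SV40 large T antigen of this line is known to bind p53. In WT, T275M and G302V minus DDX3X siRNA the p53 list had medians of 0.27, 0.47 and 0.30. Over all compared genes they were 0.10, 0.10 and 0.06. The growth arrest genes GADD45A and CDKN1A were at 0.37 and 0.36 and the death receptor genes TNFRSF10A and FAS at -0.32 and -0.26. CDKN1A, the inhibitor p21, was at 7.38 RPKM with GFP against 5.54 RPKM with control siRNA, and at 16.3 to 22.7 RPKM in the other plasmid libraries. Of 20 NRF2 and metal response genes, 9 were higher, with a median of -0.02, from the metallothioneins MT1X and MT2A at -0.19 and -0.18 to HMOX1 at 0.24.

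Targets of ATF4, the transcription factor of the integrated stress response, were lower in 28 of 40 genes, with a median of -0.10. In WT, T275M and G302V minus DDX3X siRNA the list had the opposite sign. Its medians there were 0.49, 0.35 and 0.22, with 37, 33 and 33 genes higher. Over all compared genes the medians were 0.10, 0.10 and 0.06, with 7673, 7711 and 7397 of 12310 genes higher. All plasmid libraries lay above both siRNA libraries in 6 of the 40 genes, beside 22.6% of all compared genes. They lay below in 3, beside 15.0%. CHAC1, a glutathione-degrading enzyme, was the 1 gene 1.5-fold higher, beside 0.520% of all genes, at 12.04 against 6.91 RPKM (0.72), and PPP1R15A, which encodes GADD34, was at 0.54. DDIT4 and SLC7A11, the cystine transporter, were 1.5-fold lower, beside 0.894%, the latter at 2.47 against 4.38 RPKM (-0.63). For both CHAC1 and SLC7A11 DDX3X siRNA was lowest of all, at 1.18 and 1.19 RPKM, and the arms overlapped. In CHAC1 the overlap came from G302V, at 6.69 RPKM and so under control siRNA. In SLC7A11 it came from DDX3X siRNA. Of 20 SRF, MRTF and YAP target genes 12 were higher, with a median of 0.02. The medians in the 3 other differences were 0.30, 0.31 and 0.24, beside 0.10, 0.10 and 0.06 over all compared genes. CYR61 and TPM2, a tropomyosin, were 1.5-fold higher, beside 0.520% of all genes, the latter at 38.4 against 23.2 RPKM (0.70), with no overlap of the arms, and CRIM1 and TPM4 were at -0.36 and -0.32.

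**Figure D5:**
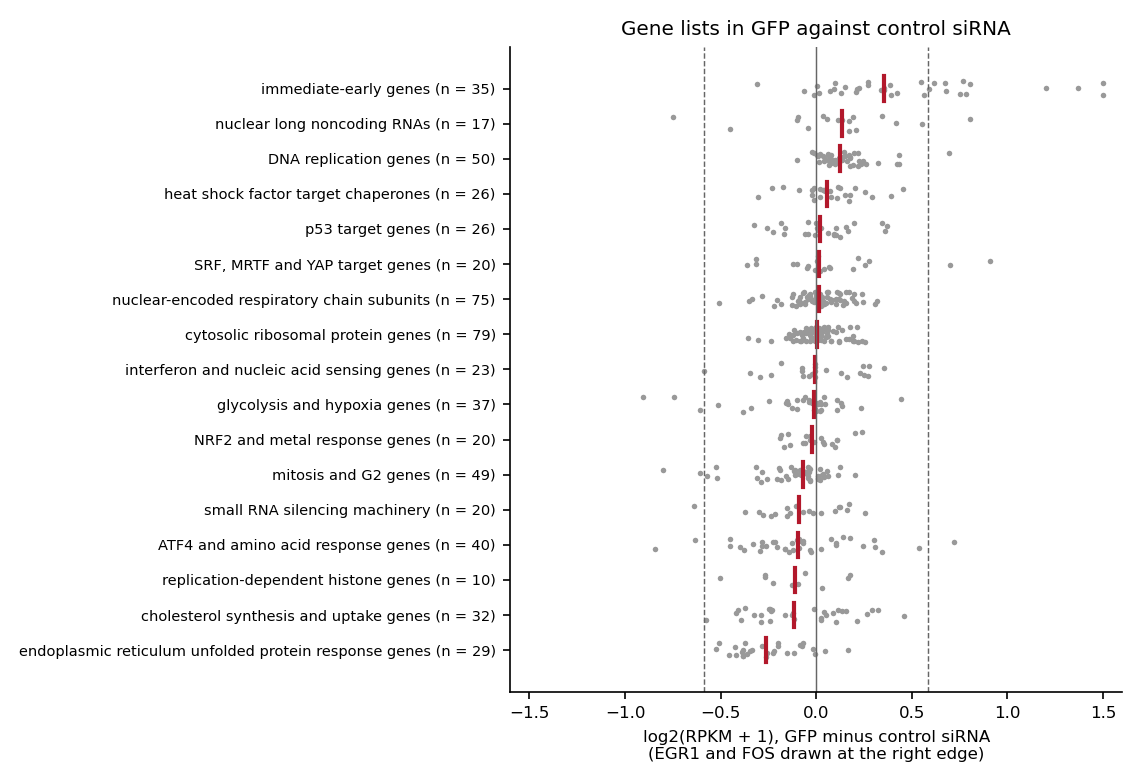
Each grey point is a compared gene of 1 of 17 lists, placed by its log2(RPKM + 1) difference, GFP minus control siRNA, with a red bar at the median of the list and dashed lines at 1.5-fold; EGR1 (5.27) and FOS (3.48) are drawn at the edge. The medians run from -0.26 for unfolded protein response genes to 0.36 for immediate-early genes.

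Metabolic and housekeeping lists differed little. Of 32 genes of cholesterol synthesis and uptake, 18 were lower, with a median of -0.12. MSMO1 and CYP51A1, sterol demethylation enzymes, were at -0.58 and -0.42, while FASN, fatty acid synthase, was at 134 against 96.9 RPKM (0.46) and MVD at 0.32. Of 37 glycolysis and hypoxia genes, 22 were lower, with a median of -0.01. The 3 past 1.5-fold were all lower, beside 0.894% of all genes, and were the glucose transporter SLC2A3 at 1.49 against 3.66 RPKM (-0.91) and the collagen prolyl hydroxylases P4HA1 at 17.9 against 30.7 RPKM (-0.74) and P4HA2 at -0.61. For SLC2A3 and P4HA1, T275M and G302V reached 3.32 to 3.43 and 31.1 to 32.9 RPKM, within the range of the siRNA libraries. ARRDC3 was at 0.45 and PFKL at 0.23.

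Of 75 nuclear-encoded respiratory chain subunits, 42 were higher, with a median of 0.02. NDUFB9, of complex I, was at 166 against 236 RPKM (-0.51, interval -0.55 to -0.46) and COX6A1 at 334 against 427 RPKM (-0.35), both below the siRNA libraries in all plasmid libraries, and NDUFB7 and ATP5I were at 0.32 and 0.31. In 20 of the 75 all plasmid libraries lay below both siRNA libraries, beside 15.0% of all genes. Of 79 cytosolic ribosomal protein genes, 42 were higher, with a median of 0.007, equal to that of all genes. They spanned -0.36 for RPS3A to 0.26 for RPS26, with RPL27 at -0.30 and RPS20 at 0.24. No gene of these 2 lists passed 1.5-fold.

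The RNA silencing machinery, into part of which siRNAs are loaded, was lower in 13 of 20 genes, with a median of -0.09. That median became 0.005 after the removal of length and GC content. DICER1, which processes microRNA precursors and has a row of 10221 bases, was at 9.32 against 15.1 RPKM (-0.64), TNRC6A at -0.37, DGCR8 at 0.26 and PRKRA at 0.17. Of 17 RNAs in the list of nuclear long noncoding RNAs 12 were higher, with a median of 0.14, led by SNHG1 and SNHG3 (0.55). The list includes host genes of small nucleolar RNAs. It leaves out XIST and TSIX, long noncoding RNAs named after their values were seen. XIST was at 93.6 against 162 RPKM (-0.79) and TSIX was at -0.59. Their rows have 19280 and 37027 bases, and after the removal of length and GC content they were at -0.214 and 0.455. NEAT1, the scaffold RNA of paraspeckles, was at 35.3 RPKM with GFP against 59.9 RPKM with control siRNA (-0.75, interval -0.79 to -0.71). It was at 33.7 to 40.4 RPKM in the other plasmid libraries and 52.7 RPKM with DDX3X siRNA, without overlap, and TUG1 was at -0.45.

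The 4 libraries outside the comparison were used to see which differences came back. They are WT, T275M and G302V against DDX3X siRNA, so the 3 differences share 1 library and carry the change of DDX3X. Of the 6 genes 2-fold higher with GFP, 3 (EGR1, FOS and IER2) were 2-fold higher in all 3, which held for 0.154% of all compared genes. Of the 4 genes 2-fold lower, 2 (CGA and MLL) were 2-fold lower in all 3, which held for 0.0569%. At 1.5-fold in all 3, the counts were 4 of 6, beside 1.77%, and 4 of 4, beside 1.47%. MLL and DST, among the 4 lower genes, have rows of 16585 and 16642 bases. The 30 genes with rows of 15000 bases or longer had medians of -0.881, -0.751 and -0.585 in these 3 differences. Of the 64 genes 1.5-fold higher with GFP, 58 were higher by any amount in all 3, beside 51.0% of all genes. Of the 110 lower genes 88 were lower in all 3, beside 28.5%. Rows of 10000 bases or longer made up 36.4% of the 110, against 1.88% of all compared genes. How much of the return goes with row length was not tested.

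When all 6 libraries were placed side by side, 11 genes had every plasmid library 1.5-fold or more above both siRNA libraries (0.0894%) and 8 had every plasmid library 1.5-fold or more below (0.0650%). The higher ones included EGR1, FOS, IER2, JUNB, CYR61, TERC and LY6G5B, together with STX1A, a syntaxin of the plasma membrane, at 5.17 against 2.93 RPKM, PDIA2, a disulfide isomerase, at 6.73 against 3.69 RPKM, and RHBDL1 and OSBPL7. The lower ones included CGA, LINC00473, LOC644656, DST, VPS13A and XIST, and TEX15 at 3.01 against 5.25 RPKM. DST, VPS13A, XIST and TEX15 have rows of 16642, 10055, 19280 and 10112 bases. After the removal of length and GC content their ratios, GFP minus control siRNA, were -0.546, -0.52, -0.214 and -0.305, all inside 1.5-fold. The genes in these sentences that the naming rule did not take were named after their values were seen.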

How the data were processed

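Libraries of 6 HEK293T cell groups, 1 each, were made from total RNA with a TruSeq RNA v2 kit and sequenced on a HiSeq 2000. Adapters were trimmed with cutadapt and reads aligned with BWA 0.5.5 per the labels, on NCBI build 37, and duplicates were removed. The deposited tables hold RPKM per transcript row, a value the authors normalised by row length and library total, and their methods call it FPKM. Symbols with several rows were represented by the one whose RPKM, averaged over the 6 tables, was largest. Reads were recovered from the steps of RPKM times row length, whole within 0.1 of a read. Differences of log2(RPKM + 1) carry exact 95% Clopper-Pearson counting intervals. No test between groups was possible, and a gene was counted at 2-fold or 1.5-fold on that scale. Positions come from GENCODE 44 on GRCh37.

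The members and lists were chosen with earlier results of these data known. Named genes were DDX3X, DDX3Y, the 12 highest and 12 lowest ratios among genes of 5 RPKM or more, and the 2 highest and 2 lowest of each of 17 lists; other genes were named after their values were seen, and a list member that the rule takes is not reported here. 5 further lists held cell type markers. All deposited columns of per-sample values were used. Calculations used pandas 2.3.3 and scipy 1.17.1 on Python 3.11.15, drawing used matplotlib 3.10.9, and the calculations were tested on simulated data. Alternatives were other pseudocounts, filters, scalings and row choices.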

Additional observations from a re-analysis of the deposited data

How the results depend on the processing

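Of 10 genes 2-fold apart (6 higher and 4 lower with GFP), a pseudocount of 0.1 gave 45, a pseudocount of 10 gave 3, a filter at 10 RPKM gave 4, any row length gave 67, reads per library total without row length gave 22, summed rows gave 16, a 1.5-fold threshold gave 174, and the fit on row length and GC content, chosen after seeing the data, gave 6. Rows shorter than 200 bases hold small RNAs, and 51 of the 457 left out were 2-fold higher and 6 lower. The counts with no level filter, rows of 500 bases or longer, median-ratio scaling and the counting interval were 8 to 12. The log2 ratio of DDX3X moved from 0.149 to 0.278 with the length and GC fit. The immediate-early median of 0.355 moved to 0.151 with a pseudocount of 10 and to 0.504 at 10 RPKM or more, with no change of direction. The 5 genes 2-fold apart in all 3 other pairs became 8 at 1.5-fold, and the 4628 genes whose arms did not overlap became 19 with a gap of 1.5-fold. Of 85 medians of 17 lists under alternatives, 83 moved by less than 0.1, but medians near 0 changed sign to between -0.028 and 0.011, with the length and GC fit (SRF, MRTF and YAP targets, ribosomal proteins, respiratory chain, interferon and silencing genes), median-ratio scaling (interferon, glycolysis) or 10 RPKM or more (NRF2). None of 138 ratios of named genes changed direction, and 63 moved beyond their counting interval. Beyond the arithmetic of each setting, the cause was not tested. No paired analysis was possible because each group has 1 library, and no library could be left out. Values of genes with few reads, such as SNAR-B1 and TERC, are less certain, and why their reads were few was not tested.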

Other observations

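Further gene groups were described after their values were seen, so their direction is not independent of the choice, and some share members with the unfolded protein response list. Of 39 genes that build and trim N-linked glycans in the secretory pathway, 37 were lower with GFP, with a median log2 ratio of -0.301, and 3 were 1.5-fold lower (UGGT1, MAN1A2 and MAN1A1), beside 0.894% of all compared genes. In 32 of the 39 all 4 plasmid libraries lay below both siRNA libraries, beside 15.0%. Of 15 collagen-modifying enzymes of the endoplasmic reticulum, 14 were lower, with a median of -0.287. P4HA1, P4HA2 and PLOD2 were 1.5-fold lower, beside 0.894% of all compared genes. P4HA1 and P4HA2 were also counted in the glycolysis and hypoxia list. PLOD2, a lysyl hydroxylase, was at 27.3 against 43.3 RPKM, but T275M and G302V had 44.2 and 40.7 RPKM. The arms overlapped for PLOD2, P4HA1 and P4HA2. Of 24 genes of translocation into the endoplasmic reticulum, 19 were lower, with a median of -0.241.

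All 13 compared genes of class I antigen presentation were lower with GFP, with a median of -0.375. B2M, the light chain of class I molecules, was at 117 RPKM with GFP, 121 to 134 RPKM in the other plasmid libraries, 192 RPKM with control siRNA and 205 RPKM with DDX3X siRNA, so the arms did not overlap, and its log2 ratio was -0.71. In the other direction, 11 of 13 host genes of small nucleolar RNAs were higher, with a median of 0.208. Some of them, such as SNHG1, were also counted in the list of nuclear long noncoding RNAs. Targets of cyclic AMP response elements were spread in both directions, since of 17 compared genes 5 were higher by 1.5-fold or more and 3 lower, beside 0.520% and 0.894% of all compared genes.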
